A study of Mus musculus with 2 samples.

Results

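The 39 genes described here carry fatty acids into oxidation, break them down, make ketone bodies from the product, or belong to the targets of the nuclear receptor PPAR alpha, among them the receptor itself. They were chosen by symbol, and each was found in the deposited tables through its RefSeq accession, 39 of 26440 genes in all. The tables come from liver of BALB/c mice taken 11 days after birth, with 1 library from SRSF2-/- liver, called KO here, and 1 from wild-type liver, called WT. SRSF2 is a serine/arginine-rich protein that takes part in splicing, and the design text calls its loss liver-specific. The sources used here do not give the promoter that drives the deletion, the liver cells it reaches or the number of mice behind a library. RNA was sequenced on an Illumina HiSeq2000 to ask how the liver transcriptome differs with this genotype. There was 1 library per genotype and so no replicate. No p-value or standard error can be given, and every value below describes these 2 libraries.

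Fatty acids are first joined to coenzyme A by acyl-CoA synthetases. The carnitine shuttle then moves long chains into mitochondria, where a cycle of dehydrogenation, hydration, a further dehydrogenation and thiolysis shortens them to acetyl-CoA, which liver turns into ketone bodies. Peroxisomes shorten very long chains and dicarboxylic acids with enzymes of their own, microsomal CYP4A enzymes hydroxylate the far end of the chain, and acyl-CoA thioesterases free the fatty acid again. PPAR alpha binds fatty acids and switches on genes in all of these places during fasting and in suckling animals, whose milk diet is rich in fat.

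The KO library held 22111605 reads on annotated accessions, and WT held 22407743. Levels are in FPKM, which is the authors' read number scaled to transcript length and sequencing depth. Folds are plain FPKM ratios of KO over WT, except for pooled genes, whose ratios are of summed reads scaled by 1.01. Ranges in brackets after a ratio are 95% limits (exact, Clopper-Pearson) from the 2 read numbers, and they cover counting error, not the spread between animals. Srsf2 stood at 11.8 FPKM in KO and 27.9 FPKM in WT, a ratio of 0.421 (0.388 to 0.457). The libraries differed in more than genotype. Xist stood at 0.0138 FPKM in KO and 27.4 FPKM in WT, and 4 Y-linked genes had reads in KO (277 to 859) and 0 or 1 read in WT, so genotype and sex cannot be told apart. Ratios were also shifted as a whole, with a median log2((KO FPKM + 1) / (WT FPKM + 1)) of 0.55 over the 12477 tested genes, those that reached 1 FPKM in either library. For this reason each log2 ratio is followed, where it matters, by its value relative to that median.

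Of the 39 genes, 9 reached 2-fold above WT on that log2 scale and 2 reached 2-fold below it. The shares over all tested genes were 19.2% above and 2.95% below, so the count of higher members (9 of 39) lies near the background. Relative to the median of all genes, 7 members were higher and 7 lower, against 5.67% and 6.66% of all tested genes. The members' own median was 0.16, or -0.39 relative to all genes. All 39 had at least 1 FPKM in both libraries, so none entered through a single library, and the lowest read count was 85. Of the 26 members with at least 50 FPKM in KO or WT, 4 were higher and 1 lower by this rule, against 23.5% and 11.6% of the 1254 genes at such levels. Summed over the members, the level was 3698 FPKM in KO and 2978 FPKM in WT, and they took 1.06% of the KO reads and 0.851% of the WT reads. The small overall difference covers a wide range, from Acot2 at a log2 ratio of 4.12 to Crot at -1.34.

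**Figure D1:**
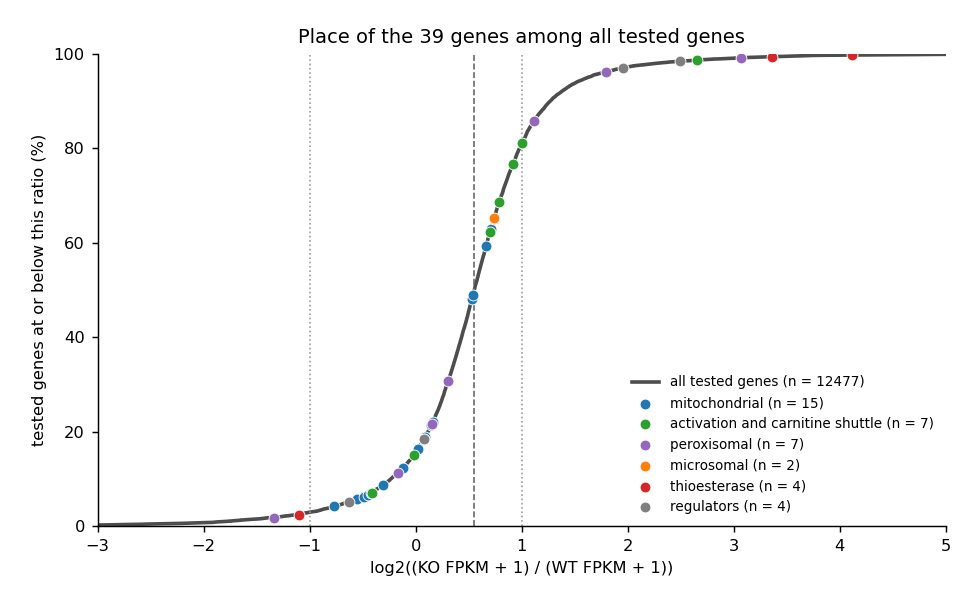
The horizontal axis is the log2 ratio of KO over WT FPKM, each with a pseudocount of 1, and the vertical axis the percentage of the 12477 tested genes at or below it. Coloured points are the 39 genes by place in the cell, the dashed line is the median of all genes at 0.55 and dotted lines mark 2-fold. Most mitochondrial genes lie in the lower part of the curve, while Acot1, Acot2, Ehhadh and Acsl4 lie near its top.

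The enzymes that prepare fatty acids for mitochondria did not differ in 1 direction. Acsl1, the main long-chain acyl-CoA synthetase of liver, stood at 101 FPKM in KO and 135 FPKM in WT, 0.748 of the WT level (0.731 to 0.766). Acsl5, a synthetase of the endoplasmic reticulum and mitochondria, stood at 93.6 FPKM in KO and 49.1 FPKM in WT, a ratio of 1.91 (1.84 to 1.98). Acsl4, which prefers arachidonic acid, had 6885 reads in KO and 988 in WT, or 49.7 FPKM against 7.05 FPKM, 7.05-fold higher in KO (6.60 to 7.55). Its log2 ratio lay above those of 98.6% of tested genes, while Acsl1 lay above 7.13% of them.

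The carnitine shuttle differed between its entry step and the later steps. Cpt1a, the outer-membrane carnitine palmitoyltransferase and the rate-controlling step of the pathway, stood at 126 FPKM in KO and 127 FPKM in WT, a ratio of 0.990 (0.969 to 1.01), and -0.57 on the log2 scale relative to all genes. The later members were above their WT levels, with smaller differences relative to all genes. Slc25a20, the carnitine-acylcarnitine translocase, stood at 94.4 FPKM in KO and 46.5 FPKM in WT, a ratio of 2.03 (1.93 to 2.14), and its log2 ratio of 1.01 lies at the 2-fold limit (0.45 relative to all genes). Cpt2, which hands the acyl chain back to coenzyme A inside mitochondria, stood at 57.1 FPKM in KO and 34.8 FPKM in WT, a ratio of 1.64 (1.56 to 1.73), and 0.15 relative to all genes. Crat, the carnitine acetyltransferase of mitochondria and peroxisomes, stood at 17.3 FPKM in KO and 9.57 FPKM in WT, and 0.24 relative to all genes. The intervals of Slc25a20, Cpt2 and Crat lie wholly above that of Cpt1a.

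**Figure D2:**
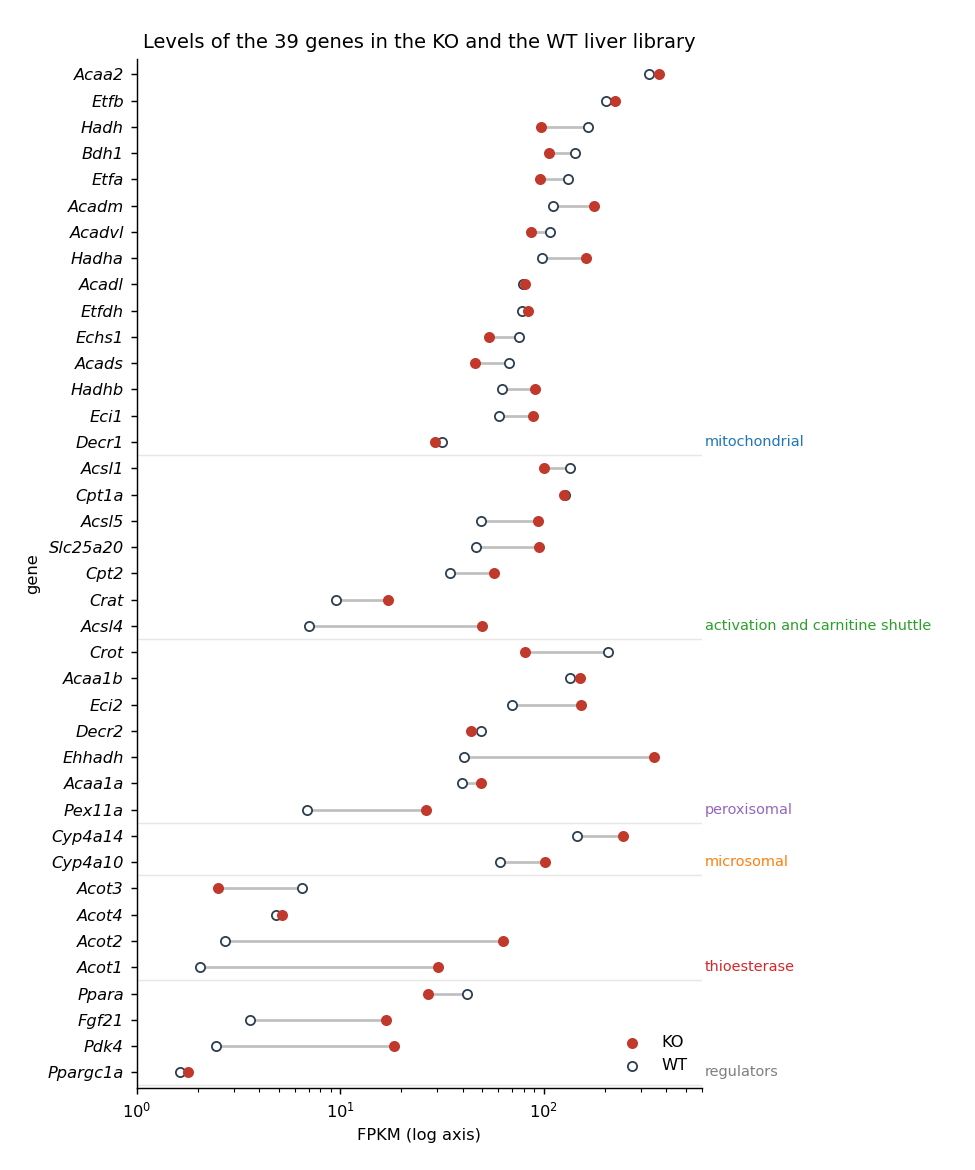
Each row is a gene, grouped by place in the cell, and the horizontal log axis gives its FPKM in the KO library (filled) and the WT library (open). Acaa2 is the most abundant of the 39 genes in both libraries at 369 FPKM in KO and 329.6 FPKM in WT, and the long grey lines belong to Acsl4, Ehhadh, Pex11a, Acot2, Acot1, Fgf21 and Pdk4.

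Genes of the mitochondrial cycle stood within 2-fold of their WT levels as deposited, at ratios from 0.585 to 1.64. None of the 15 mitochondrial genes differed by 2-fold, where 19.2% of all tested genes were higher by that rule and 2.95% lower. The summed level of the 15 was 1793 FPKM in KO and 1747 FPKM in WT, a ratio of 1.03. Their median log2 ratio was 0.022, but -0.53 relative to all genes, with 8 of 15 above the WT level where 84.5% of all tested genes were. After centring, 4 of the 15 were at least 2-fold lower and 0 higher, against 6.66% and 5.67% of all tested genes. Abundant genes as a class gave a like comparison: for the 1254 genes at 50 FPKM or more in KO or WT the median was 0.50, and for the 14 mitochondrial genes among them it was 0.056.

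Genes of the same step of the cycle differed in direction. The acyl-CoA dehydrogenases catalyse the first step, each for a range of chain lengths. Acadm, for medium chains, stood at 178 FPKM in KO and 112 FPKM in WT, a ratio of 1.59 (1.54 to 1.64), but only 0.11 on the log2 scale relative to all genes. Acadl, for long chains, stood at 80.8 FPKM in KO and 79.5 FPKM in WT. Acadvl, for very long chains at the inner membrane, stood at 86.9 FPKM in KO and 108 FPKM in WT. Acads, for short chains, stood at 45.8 FPKM in KO and 67.4 FPKM in WT, a ratio of 0.679 (0.643 to 0.717). As deposited, Acadm was thus above its WT level and Acadvl and Acads below theirs, with intervals that do not meet. Relative to all genes Acadm stood near the shift of the whole library, and Acadl (-0.53), Acadvl (-0.86) and Acads (-1.10) below it.

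The genes for both subunits of the trifunctional protein, which carries out the later steps on long chains, stood above their WT levels as deposited. The alpha subunit gene Hadha stood at 162 FPKM in KO and 98.6 FPKM in WT, a ratio of 1.64 (1.60 to 1.68). The beta subunit gene Hadhb stood at 90.5 FPKM in KO and 62.3 FPKM in WT, a ratio of 1.45 (1.39 to 1.52). Relative to all genes these log2 ratios were 0.15 and -0.022, which is the shift of the whole library. The short-chain hydratase gene Echs1 stood at 53.9 FPKM in KO and 75.7 FPKM in WT, 0.712 of the WT level (0.673 to 0.753). Hadh, the short-chain hydroxyacyl-CoA dehydrogenase gene, had the lowest ratio of the class at 97.0 FPKM in KO and 166 FPKM in WT, or 0.585 (0.566 to 0.605). Acaa2, the matrix thiolase of the last step, stood at 369 FPKM in KO and 329.6 FPKM in WT, a ratio of 1.12. Relative to all genes, Hadh (-1.32), Acads (-1.10), Echs1 (-1.04) and Etfa (-1.003) were the 4 mitochondrial genes 2-fold or more below.

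Of the 15 mitochondrial genes, those for unsaturated chains (Eci1, Decr1), electron transfer (Etfa, Etfb, Etfdh) and ketone bodies (Bdh1) stood within 1.5-fold of WT. Eci1, an enoyl-CoA isomerase gene, stood at 88.4 FPKM in KO and 60.5 FPKM in WT, and the dienoyl-CoA reductase gene Decr1 at 29.2 FPKM in KO and 31.8 FPKM in WT. Etfa and Etfb encode the 2 subunits of the electron transfer flavoprotein. Etfa stood at 96.5 FPKM in KO and 132 FPKM in WT, a ratio of 0.730 (0.700 to 0.762), and Etfb at 225 FPKM in KO and 203 FPKM in WT, a ratio of 1.11 (1.07 to 1.15). Etfdh, which feeds those electrons to ubiquinone, stood at 83.7 FPKM in KO and 78.5 FPKM in WT. Bdh1, which converts acetoacetate and beta-hydroxybutyrate into each other, stood at 106 FPKM in KO and 142 FPKM in WT, a ratio of 0.748 (0.727 to 0.769).

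**Figure D3:**
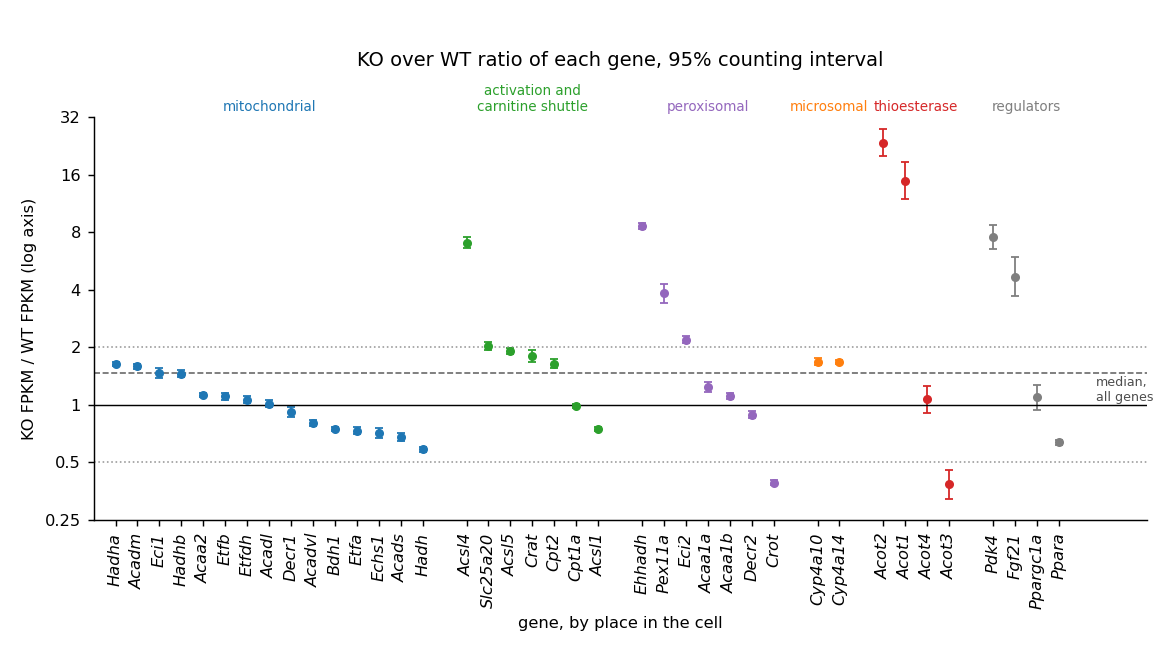
The vertical log axis gives KO FPKM over WT FPKM for each gene, with 95% counting intervals, and genes stand side by side by place in the cell. The mitochondrial genes lie between 0.585 and 1.64, both Cyp4a genes at about the same ratio, and the peroxisomal and thioesterase genes on both sides of 1. The dashed line is the median over all genes, taken with the pseudocount of 1 and turned back to a ratio, and dotted lines mark 2-fold.

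Peroxisomal genes ranged further than mitochondrial ones, with 3 of 7 higher by 2-fold or more and 1 lower (centred, 2 and 1). Over all tested genes 19.2% were higher and 2.95% lower (centred, 5.67% and 6.66%). Ehhadh, the bifunctional hydratase and dehydrogenase of peroxisomal oxidation, had 27538 reads in KO and 3245 in WT. This is 349 FPKM in KO and 40.6 FPKM in WT, 8.59-fold higher (8.28 to 8.91), with a log2 ratio of 3.07 as deposited and 2.52 centred. In the order of levels within the 39 genes Ehhadh held place 2 in KO and place 26 in WT. Pex11a, which promotes the division of peroxisomes, stood at 26.3 FPKM in KO and 6.88 FPKM in WT, 3.83-fold higher (3.43 to 4.29). Eci2, an isomerase gene of peroxisomes and mitochondria, stood at 153 FPKM in KO and 69.7 FPKM in WT, 2.19-fold higher (2.10 to 2.28), but its log2 ratio of 1.12 is 0.57 relative to all genes.

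The other peroxisomal enzymes described here did not share the size of the Ehhadh difference. The thiolase genes of the last step, Acaa1a and Acaa1b, stood at 49.4 FPKM in KO and 39.7 FPKM in WT, and at 151 FPKM in KO and 135 FPKM in WT. Decr2, the peroxisomal dienoyl-CoA reductase gene, stood at 43.9 FPKM in KO and 49.4 FPKM in WT. Crot, the carnitine octanoyltransferase gene that exports shortened chains, differed in the opposite direction to Ehhadh, at 81.4 FPKM in KO and 207 FPKM in WT. Its ratio was 0.392 (0.381 to 0.404), the lowest of the 39 genes on the log2 scale at -1.34 (centred, -1.89). In the order of levels it held place 21 in KO and place 2 in WT.

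Acaa1a and Acaa1b are 96.5% identical over 1275 aligned coding bases, and 34.0% of the 50-base words of the Acaa1a transcript occur in Acaa1b. Within their coding parts, only reads across differing letters tell the pair apart. The stretch of 120 coding bases with the most differences, 14, is therefore shown. It runs from coding base 433 to 552 of both genes on chromosome 9, in GENCODE transcripts of GRCm38, with differing letters in capitals.
Acaa1a: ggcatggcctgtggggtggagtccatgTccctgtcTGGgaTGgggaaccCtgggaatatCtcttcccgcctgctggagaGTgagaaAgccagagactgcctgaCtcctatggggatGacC
Acaa1b: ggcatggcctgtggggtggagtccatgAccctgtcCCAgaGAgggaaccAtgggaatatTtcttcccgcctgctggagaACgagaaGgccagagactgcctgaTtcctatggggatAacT
Pooled, the pair had 8893 reads in KO and 7868 in WT, a ratio of 1.14 (1.11 to 1.18). If each shared read was counted once, this value does not depend on how such reads were divided between them.

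The thioesterase genes held the widest range of any place, a log2 ratio of 4.12 for Acot2 and -1.10 for Acot3. Acot2, the mitochondrial acyl-CoA thioesterase, had 3651 reads in KO and 158 in WT, or 63.3 FPKM in KO and 2.71 FPKM in WT, 23.4-fold higher (19.9 to 27.6). Acot1, its cytosolic relative, had 1242 reads in KO and 85 in WT, or 30.4 FPKM in KO and 2.06 FPKM in WT, 14.8-fold higher (11.9 to 18.6). These were the 2 highest ratios of the 39 genes, above 99.7% and 99.4% of tested genes. The peroxisomal thioesterases differed from them. Acot3 stood at 2.52 FPKM in KO and 6.53 FPKM in WT, a ratio of 0.385 (0.323 to 0.457), and Acot4 at 5.19 FPKM in KO and 4.86 FPKM in WT, a ratio of 1.07 (0.907 to 1.25).

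The 4 genes are neighbours in a cluster on chromosome 12, in RefSeq's order (GRCm38.p6) Acot2, Acot1, Acot4, Acot3, Acot5 and Acot6. The high genes in KO were thus the 2 at 1 end of the cluster. Acot5 had 4 reads in KO and 1 in WT, and Acot6 stood at 1.31 FPKM in KO and 1.10 FPKM in WT. Acot1 and Acot2 are 95.5% identical over 1239 aligned coding bases, with an identical run of 273 bases, and 23.9% of the 50-base words of Acot1 occur in Acot2. Their most different stretch of 120 coding bases without a gap is shown, with 14 differing letters in capitals. It is 1 example of where the 2 genes with the largest ratios differ. It covers coding bases 767 to 886 of Acot1 and 890 to 1009 of Acot2 (GENCODE transcripts, GRCm38, chromosome 12).
Acot1: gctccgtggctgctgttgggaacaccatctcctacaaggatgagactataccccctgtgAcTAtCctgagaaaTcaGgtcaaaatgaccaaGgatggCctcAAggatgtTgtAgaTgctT
Acot2: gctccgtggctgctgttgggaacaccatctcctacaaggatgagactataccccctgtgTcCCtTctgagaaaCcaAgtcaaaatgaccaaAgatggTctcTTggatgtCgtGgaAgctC
Pooled, Acot1 and Acot2 had 4893 reads in KO and 243 in WT, a ratio of 20.4 (17.9 to 23.3). If each read shared by the pair was counted once, its division between them does not alter this value. Acot1 also shared 9.14% of its words with Acot5 and 7.74% with Acot3. Acot3 and Acot4 are 74.2% identical in their coding bases, and pooled they had 501 reads in KO and 786 in WT, a ratio of 0.645 (0.576 to 0.722).

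**Figure D4:**
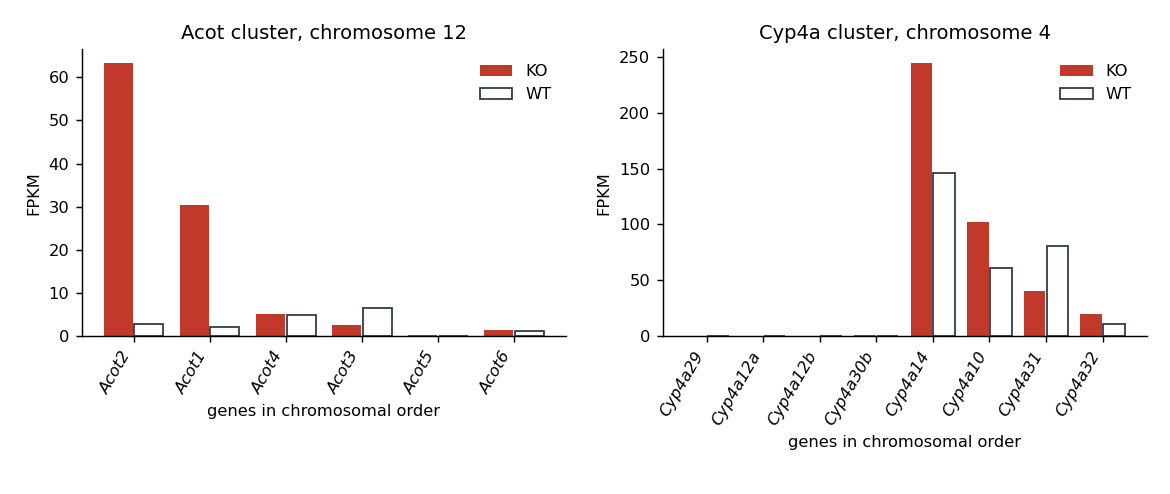
Bars give FPKM in the KO library (filled) and the WT library (open) for the genes of the Acot cluster and the Cyp4a cluster in chromosomal order, on axes that start at 0. In the Acot cluster Acot2 and Acot1 stand at 63.3 and 30.4 FPKM in KO against 2.71 and 2.06 FPKM in WT, and in the Cyp4a cluster Cyp4a31 is lower in KO while its neighbours Cyp4a14, Cyp4a10 and Cyp4a32 are higher.

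The microsomal genes Cyp4a10 and Cyp4a14 encode fatty acid omega-hydroxylases that are classical PPAR alpha targets in rodent liver. Cyp4a10 stood at 102 FPKM in KO and 60.8 FPKM in WT, a ratio of 1.68 (1.61 to 1.75). Cyp4a14 stood at 245 FPKM in KO and 146 FPKM in WT, a ratio of 1.67 (1.63 to 1.72). Both had a log2 ratio of 0.74, and relative to all genes 0.18 and 0.19. Neither reached 2-fold, and about 65% of tested genes had a lower ratio than either.

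Other members of the family differed in direction. Cyp4a31 stood at 40.5 FPKM in KO and 80.6 FPKM in WT, a ratio of 0.502 (0.479 to 0.526), and Cyp4a32 at 19.6 FPKM in KO and 10.6 FPKM in WT, a ratio of 1.86 (1.67 to 2.07). Cyp4a12a and Cyp4a12b, known as male-biased in adult mice, had 9 reads each in KO and 0 in WT. The coding bases of Cyp4a10 are 96.6% identical to Cyp4a31 and 97.2% to Cyp4a32, but 76.1% to Cyp4a14. Of the 50-base words of the Cyp4a10 transcript, 25.0% occur in Cyp4a32 and 15.3% in Cyp4a31. The most different stretch of 120 coding bases of Cyp4a10, higher in KO, and Cyp4a31, lower in KO, is shown. It covers coding bases 23 to 142, with 9 differing letters in capitals (GENCODE transcripts, GRCm38, chromosome 4).
Cyp4a10: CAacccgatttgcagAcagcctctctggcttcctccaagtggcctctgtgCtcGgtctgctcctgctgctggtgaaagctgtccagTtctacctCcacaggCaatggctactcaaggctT
Cyp4a31: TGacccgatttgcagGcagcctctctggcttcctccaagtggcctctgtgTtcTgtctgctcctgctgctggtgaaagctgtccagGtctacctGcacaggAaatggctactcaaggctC
Pooled, Cyp4a10, Cyp4a31 and Cyp4a32 had 9224 reads in KO and 9269 in WT, a ratio of 1.01 (0.978 to 1.04). By reads this is no difference beyond counting error. The pool's summed level was 162 FPKM in KO and 152 FPKM in WT. Its log2 ratio on that scale, 0.092, lies below the median of 0.55 over all genes. How the authors divided reads shared by these 3 genes is not stated, so the ratio of Cyp4a10 alone is uncertain. Cyp4a14 shares 0.245% of its words with another gene.

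Among the regulators, the receptor was lower and 2 of its targets were higher. Ppara, which encodes PPAR alpha, stood at 26.9 FPKM in KO and 42.2 FPKM in WT, a ratio of 0.637 (0.617 to 0.659), with a log2 ratio of -0.63 as deposited and -1.18 centred. Ppargc1a, which encodes the coactivator PGC-1 alpha, stood at 1.78 FPKM in KO and 1.63 FPKM in WT, a ratio of 1.09 (0.940 to 1.27), within counting error. Pdk4, the kinase that shuts the pyruvate dehydrogenase complex in fasting, had 1672 reads in KO and 225 in WT, or 18.5 FPKM against 2.46 FPKM, 7.51-fold higher (6.54 to 8.68). Fgf21, a hormone that liver releases in fasting and under amino acid shortage, had 419 reads in KO and 91 in WT, or 16.9 FPKM against 3.62 FPKM, 4.66-fold higher (3.71 to 5.91).

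Promoter windows from RefSeq (GRCm38.p6, 250 bases before to 50 after the gene's start) were found for 34 of the 39 genes. PPAR alpha with its partner RXR binds a direct repeat of AGGTCA with 1 base between, written AGGTCANAGGTCA. No member window held it exactly on either strand, and 0.0481% of all genes with a window did. With up to 2 mismatches in its 12 fixed letters it was found in 4 of 34 members (11.8%) and 4.40% of 27025 genes. They were Echs1, Etfa, Slc25a20 and Acot4, of which only Slc25a20 was at least 2-fold higher in KO. Their windows are shown with the match in capitals, read along the gene's strand.
Slc25a20 (chr9:108662112-108662154, plus strand): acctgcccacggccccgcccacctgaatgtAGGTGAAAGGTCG
Acot4 (chr12:84038336-84038378, plus strand): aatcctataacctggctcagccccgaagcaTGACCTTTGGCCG
Etfa (chr9:55512278-55512350, minus strand): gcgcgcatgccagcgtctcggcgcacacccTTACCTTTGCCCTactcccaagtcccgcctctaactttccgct
Echs1 (chr7:140116462-140116534, minus strand): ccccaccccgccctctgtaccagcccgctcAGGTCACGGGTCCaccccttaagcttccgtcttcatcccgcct
A match is a description of letters, and sites of this receptor often lie outside such a window.

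A second motif, TGATGCAA on either strand, is the core of the amino acid response element bound by ATF4 with a C/EBP partner. It was present in 2 of 34 members and 1.03% of all genes with a window. Fgf21, higher in KO, and Echs1, lower in KO, held it.
Fgf21 (chr7:45615592-45615659, minus strand): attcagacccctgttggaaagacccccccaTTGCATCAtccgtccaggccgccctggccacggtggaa
Echs1 (chr7:140116548-140116615, minus strand): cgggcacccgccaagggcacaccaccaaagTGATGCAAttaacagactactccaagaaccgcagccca

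Set side by side, the places in the cell took different shares of the members' summed level. Mitochondrial genes held 48.5% of it in KO and 58.7% in WT, peroxisomal genes 23.1% in KO and 18.4% in WT, microsomal genes 9.38% in KO and 6.95% in WT, and thioesterases 2.74% in KO and 0.542% in WT. The median log2 ratio was 0.022 for mitochondrial, 0.31 for peroxisomal, 0.74 for microsomal and 1.72 for thioesterase genes, and relative to all genes -0.53, -0.25, 0.18 and 1.17. Without Ehhadh the peroxisomal sum was 504 FPKM in KO and 509 FPKM in WT. With 2 microsomal and 4 thioesterase genes, a median says little beyond its members, and the order of the places was not tested.

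The other genes of these pathways, on lists drawn up with earlier results in view, showed 21 of 138 tested genes above WT by 2-fold or more and 14 below (centred, 8 and 26), a share of higher genes of 15.2%. Over all tested genes 19.2% were higher and 2.95% lower (centred, 5.67% and 6.66%), so the share of higher genes lies below the background and that of lower genes above it. Mitochondrial oxidation genes outside the 39 had 2 of 22 higher and 5 lower (centred, 1 and 8), with a median of -0.053. Acat1, the acetoacetyl-CoA thiolase of ketogenesis and isoleucine breakdown, stood at 76.0 FPKM in KO and 245 FPKM in WT, a ratio of 0.310 (0.302 to 0.319), and Pcca, a propionyl-CoA carboxylase subunit gene, at 5.11 FPKM in KO and 15.6 FPKM in WT. The isomerase gene Ech1, the most abundant of them, stood at 189 FPKM in KO and 192 FPKM in WT. Of 6 tested ketone body genes 0 reached 2-fold on the log2(FPKM + 1) scale. Slc16a7, a monocarboxylate carrier gene, stood at 16.0 FPKM in KO and 7.92 FPKM in WT, and Oxct1, which uses ketone bodies outside liver, at 4.17 FPKM in KO and 1.93 FPKM in WT.

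Peroxisomal genes outside the 39 had 1 of 24 higher and 4 lower (centred, 0 and 5), against 19.2% and 2.95% of all tested genes (centred, 5.67% and 6.66%). Hacl1, the lyase of alpha-oxidation, stood at 29.9 FPKM in KO and 113 FPKM in WT, a ratio of 0.265 (0.253 to 0.279). The membrane protein gene Pxmp2 stood at 24.4 FPKM in KO and 89.7 FPKM in WT, and Baat, which joins bile acids to amino acids, at 6.98 FPKM in KO and 20.8 FPKM in WT. The peroxins that build the organelle had 1 of 14 higher and 0 lower (centred, 0 and 2), with Pex19 at 45.5 FPKM in KO and 22.1 FPKM in WT. Pex11a thus had the largest ratio of the peroxin genes looked at here.

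Further PPAR alpha targets, most of them tied to lipid droplets and plasma lipids, had 9 of 21 higher and 1 lower (5 and 2 after centring), where 19.2% of all tested genes were higher and 2.95% lower (centred, 5.67% and 6.66%). Angptl4, an inhibitor of lipoprotein lipase, stood at 154 FPKM in KO and 17.7 FPKM in WT, 8.69-fold higher (8.11 to 9.33). Plin2, a lipid droplet coat protein gene, stood at 319.9 FPKM in KO and 76.0 FPKM in WT, 4.21-fold higher (4.06 to 4.36), and Hilpda, another droplet protein gene, at 34.3 FPKM in KO and 2.87 FPKM in WT. Cidec, which fuses droplets, stood at 33.4 FPKM in KO and 0.484 FPKM in WT, 69.1-fold higher (45.5 to 111). Cidec is also 1 of 7 white adipocyte markers, which summed to 136 FPKM in KO and 51.9 FPKM in WT. That sum includes Cidec itself, and most of it was Fabp4, at 101 FPKM in KO and 51.4 FPKM in WT. Of the 7 markers, 1 had 0 reads in KO and 4 had 0 in WT. Among the markers other than Cidec, Fabp4 had 1705 reads in KO and 875 in WT. Plin1 had 49 in KO and 0 in WT, and Adipoq 4 in KO and 0 in WT. The part of adipocyte RNA in Cidec was not tested. Among omega-oxidation genes Aldh3a2, which oxidises fatty aldehydes, stood at 91.4 FPKM in KO and 53.0 FPKM in WT. Thioesterases outside the cluster had 1 of 5 higher and 0 lower, before and after centring, namely Acot9, at 6.23 FPKM in KO and 1.41 FPKM in WT.

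The makeup of the samples differed beside these results. Over all tested genes 84.5% stood above WT, 19.2% were at least 2-fold higher and 2.95% lower (centred, 5.67% and 6.66%). Of 10 hepatocyte markers 4 were at least 2-fold lower in KO and 1 higher (centred, 7 and 0). Their summed level was 48511 FPKM in KO and 100219.5 FPKM in WT. In bulk liver, fewer cells of a type and less RNA per cell cannot be told apart. Skeletal muscle markers summed to 103 FPKM in KO and 1.52 FPKM in WT, with 9 of 15 at 0 reads in WT. Of the 12 tested ones 11 were at least 2-fold higher (centred, 9). Beside them Cpt1b, the muscle form of the carnitine palmitoyltransferase, stood at 10.4 FPKM in KO and 0.215 FPKM in WT, and the part of muscle RNA in this and in Pdk4 was not tested. Macrophage markers summed to 418 FPKM in KO and 178 FPKM in WT. All 8 stood above WT and 2 of 8 were at least 2-fold higher (centred, 1), as deposited near the shares of all tested genes. Markers of matrix-producing cells summed to 503 FPKM in KO and 188 FPKM in WT. Bile duct markers summed to 103 FPKM in KO and 34.2 FPKM in WT, and exocrine pancreas markers to 899 FPKM in KO and 45.3 FPKM in WT. Their part in Acsl4 and the other high genes was not tested. Brown adipocyte markers summed to 8.08 FPKM in KO and 3.06 FPKM in WT, with Ucp1 at 1 read in KO and 0 in WT, and markers of adrenal cortex and kidney to 1.33 FPKM in KO and 0.529 FPKM in WT. Endothelial markers summed to 141 FPKM in KO and 117 FPKM in WT, and erythroid ones to 239 FPKM in KO and 417 FPKM in WT.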

How the data were processed

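Per the submitters' processing notes, reads were aligned with Bowtie 0.12.2 to mouse build mm9. The sources used here do not name the counting program or say how reads matching several genes, strand and pooled animals were treated. Per the file headers, the deposited values are whole read counts and FPKM by RefSeq accession, computed by the authors. Accessions were named through RefSeq (GRCm38.p6) and GENCODE tables, 23419 of 26449, and summed per gene. Gene coordinates were not used to name or sum genes, since the build differs. GRCm38 coordinates served for the order of the Acot and Cyp4a clusters, the coding stretches and the promoter windows.

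The log2 ratio used a pseudocount of 1, which understates the change of low genes, and genes with at least 1 FPKM in either library. Genes were called by size at 2-fold, since 1 library per genotype allows no test. Read-ratio intervals and the ratios of pooled genes were scaled by 1.01, the KO over WT worth of a read in FPKM. Levels were compared between genes on the FPKM scale. The length behind the deposited FPKM was within 1.5-fold of the GENCODE transcript for 35 of the 39 genes, not for Ppara, Bdh1, Decr2 and Acot4.

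Shared 50-base words were counted against all GENCODE M21 transcripts, and read length is not known. Of the 39 genes, 21 shared no word with another gene. Hadhb shared 62.9% and Etfb 67.3% of its words, mostly with Gm13910 and Gm45233. Members, lists and places were chosen with earlier results of these data known. Apart from markers and Srsf2, genes named outside the 39 come from the most abundant one of each list and the 3 of largest absolute log2 ratio. Acot5, Acot6, Cyp4a12a and Cyp4a12b fall outside this rule. They were named as members of the gene clusters after their values were seen. A few listed genes were not matched by accession and are not analysed here, and some results are not reported here. Intervals and calls were run on simulated read counts with known folds and counting error alone. That simulation held no spread between animals and so says nothing about it. Tables and intervals were made in Python 3.11.15 with pandas 2.3.3 and scipy 1.17.1.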

Additional observations from a re-analysis of the deposited data

How the results depend on the processing

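With 1 library per genotype no library could be left out, and direction and size rest on these 2 libraries. No paired analysis was possible because each genotype has 1 library and no test was made. A pseudocount of 0.1, TPM and reads scaled to the library total kept all 11 calls of 2-fold. No filter, a filter of 5 FPKM and the highest accession of a gene kept them too, but could not change a member's ratio. Each member had 1 accession, and a filter only decides which genes are kept. Size rules of 1.5-fold and 4-fold gave 16 and 5 higher members, and 4 and 0 lower ones. A pseudocount of 5 left 1 lower member (Slc25a20 and Acot3 no longer reached 2-fold) and a thioesterase median of 1.19. Centring on the median of all genes gave 7 lower members and medians of -0.53 (mitochondrial), -0.25 (peroxisomal), 0.18 (microsomal) and 1.17 (thioesterase). It ended the calls of Slc25a20 and Eci2 and added Acads, Hadh, Echs1, Etfa and Ppara as lower. Rescaling without the 20 most abundant genes by FPKM gave medians of -0.31, -0.021, 0.41 and 1.44 for the same 4 places. A filter of 50 FPKM, chosen after seeing the data, kept 26 members, with 4 higher and 1 lower, a peroxisomal median of 0.64 and a thioesterase value of 4.12, which is Acot2 alone. Counting Acot3 and Acot4 as peroxisomal gave a peroxisomal median of 0.15, and leaving them out a thioesterase median of 3.74. Counting Eci2 as mitochondrial gave a mitochondrial median of 0.056. With Eci2 left out and Crat counted as peroxisomal, the peroxisomal median stayed at 0.31. In these alternatives 0 of the 11 genes that reached 2-fold changed sign. This outcome says little, because these genes were picked for a log2 ratio of at least 1 in size. Centring shifts ratios by only 0.55, and pseudocounts and filters cannot turn a sign.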

Other observations

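Genes that take up, bind or activate fatty acids before oxidation lay on both sides, with 4 of 17 at least 2-fold higher in KO and 4 lower (1 and 5 after centring), against 19.2% and 2.95% of all tested genes (5.67% and 6.66% after centring). Slc27a5, a liver fatty acid transport protein that also activates bile acids, stood at 37.2 FPKM in KO and 131 FPKM in WT, a ratio of 0.284 (0.271 to 0.297). Acsm1, a medium-chain acyl-CoA synthetase gene, stood at 21.1 FPKM in KO and 68.1 FPKM in WT. Acsl3, a synthetase gene of lipid droplets and the endoplasmic reticulum, went the other way at 11.0 FPKM in KO and 2.04 FPKM in WT, a ratio of 5.40 (4.66 to 6.28). Fabp1, the liver fatty acid binding protein gene, stood at 1304 FPKM in KO and 892 FPKM in WT.

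Partners and coregulators of PPAR alpha had 2 of 18 at least 2-fold higher in KO and 0 lower (0 and 1 after centring), against 19.2% and 2.95% of all tested genes (5.67% and 6.66% after centring), with a median of 0.56 on the log2 scale, level with all genes. Pparg, the PPAR of fat cells, stood at 13.7 FPKM in KO and 6.10 FPKM in WT, and Lpin1, a phosphatidate phosphatase and coactivator, at 13.1 FPKM in KO and 5.92 FPKM in WT. Rxra, which encodes the partner receptor of PPAR alpha, stood at 45.5 FPKM in KO and 62.1 FPKM in WT, a ratio of 0.732 (0.709 to 0.757).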
